A study of Mus musculus with 6 samples.

Results

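The cell cycle and DNA replication genes described here are 36 named genes, taken by their symbols from the deposited table of 45777 genes. They fall into 8 genes that control the passage from G1 to S phase, 10 genes of DNA replication and 18 genes of mitosis. Their messenger RNA was measured in whole liver of C57BL/6 mice aged 10 weeks. The WT group held 3 libraries from Pak4 flox/flox mice, whose labels name no Cre, and the Pak4_KO group held 3 libraries from Alb-Cre; Pak4 flox/flox mice, in which the albumin promoter drives Cre recombinase in hepatocytes. Both groups therefore carry the floxed alleles, and the Cre transgene is named for the second group alone. Pak4 was not measured by cell type, so these data do not show which other liver cells keep it. Since no label ties a library to an animal, the p-values speak of library-to-library spread, which may be technical. The comparison asks whether liver without hepatocyte Pak4, a serine/threonine kinase, differs in the transcripts of dividing cells.

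Cells that divide pass through G1, S, G2 and mitosis in order. Cyclins activate cyclin-dependent kinases (CDKs), and the inhibitors p21 and p27 restrain them. In G1, cyclin D with CDK4 and cyclin E with CDK2 release E2F transcription factors, which turn on the genes of DNA synthesis. Later, FOXM1 and the DREAM and MuvB complexes govern the mitotic genes, many of them through a promoter element called the CHR. In the adult liver most hepatocytes rest outside the cycle and return to it after injury or loss of tissue. Dividing immune, endothelial or blood precursor cells can add such transcripts to whole liver. In these bulk libraries, fewer cells of a type and less RNA per cell cannot be told apart.

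Promoter sequence is shown because the replication and mitosis genes differ in the elements they carry. Windows of 250 bases before to 50 after the start, credited to RefSeq on GRCm38.p6, were matched for 29 of the 36 members, as 31 windows. Mcm7 and Cdkn1a are counted more than once, so the 10 replication windows stand for 9 genes and the 7 G1 to S windows for 6. The Mcm7 windows all carry CCAAT and an E2F heptamer. Both strands were searched for TTTGAA (CHR), for CCAAT, and for 4 E2F heptamers, which may overlap each other and CCAAT: the heptamer TTCCCGC, the variant TTGGCGC, the variant TTCGCGC and the variant TTGCCGC. The CHR letters were in 10 of 14 mitosis windows (71.4%), 1 of 10 replication windows (10.0%) and 0 of 7 windows of G1 to S control, against 17.9% of all 32851 windows. An E2F heptamer was in 7 of 10 replication windows, 3 of 14 mitosis windows (21.4%) and 1 of 7 G1 to S windows (14.3%), against 9.57% of all windows. CCAAT was in 9 of 10 replication windows (90.0%) and 13 of 14 mitosis windows (92.9%) and 2 of 7 G1 to S windows (28.6%), against 37.4% of all windows. A match is a description of the letters and not a measured binding site.

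The 150 bases before the start of 6 members, as the promoter windows place it, follow 5′ to 3′ on the gene's strand, with every match in capitals. Rrm1 (chr7:102441545-102441694, plus strand) and Mcm6 (chr1:128359706-128359855, minus strand) stand for replication, with E2F heptamers. Cdk1 (chr10:69352913-69353062), Mki67 (chr7:135716380-135716529), Top2a (chr11:99024190-99024339) and Ccnb1 (chr13:100786487-100786636), all on the minus strand, stand for mitosis. The first 3 of these carry the CHR letters, read as TTCAAA on the strand shown in Top2a, and Ccnb1 carries none in its window. Cdk1, Mki67 and Ccnb1 are the mitosis members with an E2F heptamer as well, which in Ccnb1 overlaps CCAAT. The printed stretches of Mki67 and Top2a reach into the gene spans given below, whose 5′ ends are at 135716450 and 99024199. Part of their printed bases thus lies within the gene by those spans, as does the E2F heptamer of Mki67.
Rrm1: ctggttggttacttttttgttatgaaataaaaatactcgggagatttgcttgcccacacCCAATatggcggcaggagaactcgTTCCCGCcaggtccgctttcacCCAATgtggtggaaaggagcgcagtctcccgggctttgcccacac
Mcm6: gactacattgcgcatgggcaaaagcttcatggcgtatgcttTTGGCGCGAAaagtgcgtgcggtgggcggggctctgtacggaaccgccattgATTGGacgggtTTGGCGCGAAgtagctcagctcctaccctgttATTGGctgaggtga
Cdk1: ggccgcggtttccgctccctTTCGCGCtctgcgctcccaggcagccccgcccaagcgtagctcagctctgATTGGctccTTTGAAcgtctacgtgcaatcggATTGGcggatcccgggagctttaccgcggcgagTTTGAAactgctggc
Mki67: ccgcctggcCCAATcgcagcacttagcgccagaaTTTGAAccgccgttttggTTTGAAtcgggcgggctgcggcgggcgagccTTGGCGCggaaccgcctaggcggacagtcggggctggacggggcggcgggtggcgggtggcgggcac
Top2a: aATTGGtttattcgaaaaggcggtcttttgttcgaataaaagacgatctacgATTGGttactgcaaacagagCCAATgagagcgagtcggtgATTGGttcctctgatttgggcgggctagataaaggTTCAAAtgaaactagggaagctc
Ccnb1: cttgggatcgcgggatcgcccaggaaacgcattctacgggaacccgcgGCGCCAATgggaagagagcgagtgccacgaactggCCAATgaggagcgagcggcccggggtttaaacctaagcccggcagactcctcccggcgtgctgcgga

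Library totals ran from 39603272 to 52521400 reads. Pak4 stood at 5.93, 7.16 and 6.44 CPM (read counts scaled to library size by TMM) in WT replicates 1 to 3, whereas the Pak4_KO libraries had 1.37, 2.24 and 1.90 CPM (edgeR adjusted p = 0.0169). Without WT replicate 1 (adjusted p = 0.0562), WT replicate 2 (adjusted p = 0.0608) or Pak4_KO replicate 3 (adjusted p = 0.0936) Pak4 was still lower but not called. The hepatocyte markers Alb (a mean of 29570 CPM in WT, 36650 CPM in Pak4_KO) and Apoa1 (3752 and 3431 CPM) were high in both groups. Of 36 members, 35 passed the filter on low counts, and Aurkb did not. Genes with 2 reads outnumbered genes with 1 read in all 6 libraries, which leaves unclear whether both mates of a pair were counted; low counts may then hold fewer fragments than reads.

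The members differed widely in level. In TPM, which is scaled by transcript length and so allows genes to be compared, Cdkn1a, which encodes p21, was the most abundant in WT at 34.6 ± 1.29 (SD, n = 3). Pcna, the sliding clamp of DNA polymerase, followed at 29.1 ± 1.41 TPM and Cdk4 at 26.3 ± 3.48 TPM, which lay within each other's spread. The next were Cdkn1b, which encodes p27, at 8.66 ± 2.81 TPM and Mcm7 at 6.71 ± 0.535 TPM. Replication genes ranged from 0.836 TPM (Mcm5) to 29.1 TPM (Pcna), with a median over the 10 genes of 2.50 TPM. Mitosis genes ranged from 0.0347 TPM (Aurkb) to 0.821 TPM (Ccnb2), with a median over the 18 genes of 0.286 TPM. By WT means, every mitosis member thus stood below every replication member, although the neighbours Mcm5 (0.836 ± 0.212 TPM) and Ccnb2 (0.821 ± 0.379 TPM) did not differ beyond their spread. In Pak4_KO this order did not hold, since the means of Ccnb2 (1.24 TPM), Mki67 (1.175 TPM) and Bub1b (0.867 TPM) were above that of Mcm5 (0.846 TPM). The Pak4_KO medians were 2.70 TPM for replication and 0.465 TPM for mitosis.

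**Figure D1:**
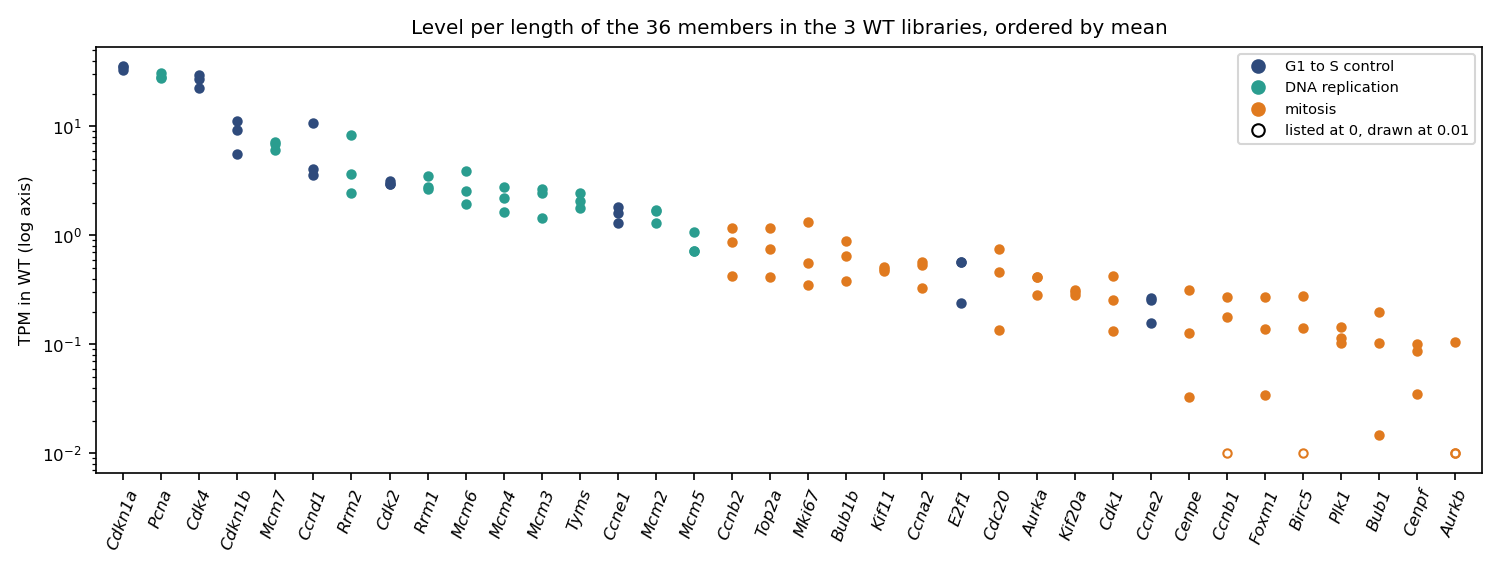
Level of each member in the 3 WT libraries in TPM on a log axis, ordered by the WT mean and coloured by role, with values listed at 0 drawn as open circles at 0.01. Cdkn1a, Pcna and Cdk4 stand at the top, and the 18 mitosis genes lie at means of 0.0347 to 0.821 TPM.

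No member was called between the genotypes. By edgeR's quasi-likelihood test, 0 of 35 tested members reached a Benjamini-Hochberg adjusted p under 0.05, beside 0.469% of all 16197 tested genes. At an unadjusted p under 0.05 there were 2 members, Rrm1 and Cenpf, or 5.71%, beside 8.21% of all tested genes. Limma-voom and limma-trend on log2(TPM + 1) also called 0 members, and the DESeq2 Wald test called 1, Rrm1, among 334 genes it called in the whole table. The values of the 2 groups did not overlap for 5 members, all higher in Pak4_KO (14.3%, beside 7.35% of all tested genes), namely Cdk2, Rrm1, Ccnb1, Plk1 and Cenpf. No member was lower without overlap, beside 6.06% of all tested genes. Positive log2 fold changes were found for 22 of 35 members, with a median of 0.12, beside 50.7% of all tested genes and their median of 0.0045.

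**Figure D2:**
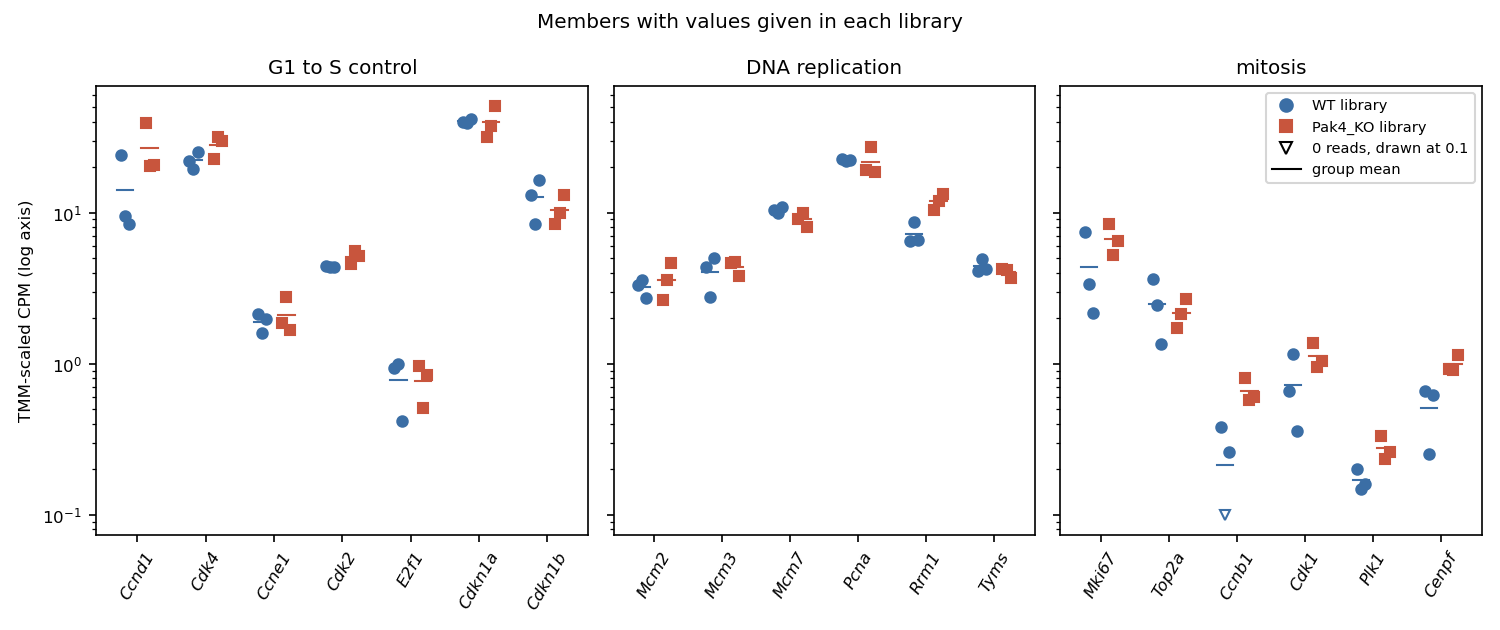
TMM-scaled CPM on a log axis for 19 members in each library, with circles for WT, squares for Pak4_KO and short bars for group means; a value of 0 reads is drawn at 0.1. Rrm1 separates the genotypes, at 6.49 to 8.65 CPM in WT and 10.4 to 13.3 CPM in Pak4_KO, while Cdkn1a and Pcna overlap.

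Among the 8 genes of G1 to S control, 4 had positive and 4 negative log2 fold changes, with a median of 0.07, and with library size scaling 6 of 8 were positive. Their summed level was 84.1 to 106.8 CPM in WT and 107.7 to 122 CPM in Pak4_KO, so the closest libraries nearly met. On the TPM scale the sums overlapped, at 70.4 to 88.5 and 86.4 to 114. The sum adds the inhibitor genes Cdkn1a and Cdkn1b to those of the cyclins and kinases, so it does not measure G1 to S activity. Ccnd1 encodes cyclin D1, the growth-signal cyclin of G1 (NCBI gene 12443, chromosome 7, 144929931 to 144939831). It stood at 24.1, 9.51 and 8.41 CPM in WT and at 39.2, 20.2 and 20.5 CPM in Pak4_KO. WT replicate 1 was well above the other WT libraries and above 2 of the 3 Pak4_KO libraries, so the groups overlapped. The log2 fold change of Ccnd1 was 0.93 (SE 0.43, 95% interval -0.05 to 1.91, edgeR adjusted p = 0.642), and it was 1.56 (adjusted p = 0.201) without WT replicate 1 and 0.54 (adjusted p = 0.767) without Pak4_KO replicate 1. With the replicate number as a block in edgeR, Ccnd1 was at 1.02 (adjusted p = 0.0916), though the numbers are not known to pair the animals. A transcript of the neighbouring gene LTO1 shares 285 bases with Ccnd1, and the strand setting of the counting is not given in the sources used here.

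Cdk4, the kinase partner of cyclin D (chromosome 10, 127063535 to 127067288), stood at 22.0, 19.4 and 25.4 CPM in WT and at 22.6, 31.5 and 30.0 CPM in Pak4_KO. Pak4_KO replicates 2 and 3 were above all WT libraries and replicate 1 was not (log2 fold change 0.33, SE 0.17, adjusted p = 0.683). Cdk2, the partner of cyclins E and A (chromosome 10, 128697938 to 128705051), stood at 4.44, 4.34 and 4.33 CPM in WT and at 4.58, 5.53 and 5.16 CPM in Pak4_KO. The groups did not overlap for Cdk2, but the closest values lay 4.44 against 4.58 CPM apart, and the log2 fold change was 0.22 (SE 0.18, adjusted p = 0.834). Ccne1, which encodes cyclin E1, had 2.12, 1.599 and 1.97 CPM in WT and 1.86, 2.75 and 1.66 CPM in Pak4_KO, and the groups overlapped. Its relative Ccne2 had 12 to 26 reads in WT and 7 to 24 in Pak4_KO (log2 fold change -0.19, SE 0.54). Ccne2 shares 202 bases with a transcript of Ints8, which held 651 to 1071 reads per library, so its few reads are uncertain in the same way.

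E2f1, the transcription factor that starts the S-phase programme, was low and variable. It had 0.934, 0.989 and 0.418 CPM in WT and 0.967, 0.508 and 0.840 CPM in Pak4_KO. The fitted log2 fold change of E2f1 was -0.01 (SE 0.44), with a 95% interval of -1.01 to 0.99, which spans about a 2-fold change in either direction.

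The CDK inhibitors did not differ beyond the spread between libraries. Cdkn1a (NCBI gene 12575, chromosome 17, 29090979 to 29100722) stood at 39.8, 39.5 and 41.7 CPM in WT and at 31.9, 37.2 and 50.5 CPM in Pak4_KO. The WT libraries were close together, and the Pak4_KO libraries lay on both sides of them. The log2 fold change of Cdkn1a was -0.02 (SE 0.18, 95% interval -0.42 to 0.38, adjusted p = 0.997), and its sign turned with library size scaling (0.05) and with TPM (0.04). Cdkn1b (chromosome 6, 134920401 to 134925525) stood at 13.1, 8.35 and 16.5 CPM in WT and at 8.35, 9.89 and 13.1 CPM in Pak4_KO, with overlap (log2 fold change -0.28, SE 0.27, adjusted p = 0.880).

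The 10 genes of DNA replication had 4 positive and 6 negative log2 fold changes and a median of -0.02. With library size scaling 6 of 10 were positive and on log2(TPM + 1) 7 of 10, each with a median of 0.02, so no direction can be given. Summed over the 10 genes, the level was 70.2 ± 5.72 CPM in WT and 72.4 ± 5.32 CPM in Pak4_KO (SD, n = 3 each). For 8 of the 10 genes the 95% interval lay within a 2-fold change in either direction.

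Rrm1 was the member with the smallest p. It encodes the large subunit of ribonucleotide reductase, the enzyme that makes deoxyribonucleotides (NCBI gene 20133, chromosome 7, 102441695 to 102469771). Rrm1 stood at 6.49, 8.65 and 6.62 CPM in WT and at 10.4, 11.9 and 13.3 CPM in Pak4_KO. Each Pak4_KO library was above each WT library, a 1.63-fold difference (log2 fold change 0.71, SE 0.18, 95% interval 0.29 to 1.13). The unadjusted p was 0.00423 and the edgeR adjusted p was 0.248, and the DESeq2 Wald test gave an adjusted p of 0.0400. Over the 14 other alternatives the adjusted p ran from 0.198 to 0.665, and the log2 fold change from 0.62 to 0.86.

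Rrm2, which encodes the small subunit of the same enzyme and whose level follows S phase, did not share this pattern. It had 3.10, 11.2 and 4.93 CPM in WT and 3.61, 5.50 and 7.96 CPM in Pak4_KO, with WT replicate 2 the highest of the 6 libraries (log2 fold change -0.17, SE 0.47). Tyms, thymidylate synthase, had 4.11, 4.95 and 4.21 CPM in WT and 4.22, 4.15 and 3.66 CPM in Pak4_KO (log2 fold change -0.14, SE 0.19, adjusted p = 0.926). Pcna (chromosome 2, 132249286 to 132253180) had 22.6, 22.0 and 22.3 CPM in WT and 19.2, 27.2 and 18.7 CPM in Pak4_KO. WT libraries were nearly equal and Pak4_KO libraries lay above and below them (log2 fold change -0.04, SE 0.17, turning to 0.007 with library size scaling and 0.02 with TPM). The pseudogene Pcna-ps2 is 99.2% identical to Pcna over 781 bases and held 37 to 63 reads per library, so reads can be split between them.

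The 6 MCM subunits form the ring-shaped helicase that is loaded at replication origins in equal numbers. Per length, Mcm7 was the most abundant in WT, at 6.71 TPM, and Mcm5 the least, at 0.836 TPM. Mcm2 had 3.31, 3.60 and 2.72 CPM in WT and 2.62, 3.56 and 4.601 CPM in Pak4_KO, with overlap (log2 fold change 0.17, SE 0.26). Mcm3 had 4.37, 2.76 and 5.01 CPM in WT and 4.601, 4.72 and 3.82 CPM in Pak4_KO (log2 fold change 0.12, SE 0.25). Mcm7 (chromosome 5, 138164583 to 138172111) had 10.4, 9.91 and 10.8 CPM in WT and 9.06, 9.95 and 8.06 CPM in Pak4_KO. Only Pak4_KO replicate 2 reached the WT range for Mcm7 (log2 fold change -0.20, SE 0.15, 95% interval -0.55 to 0.15). For Mcm4, Mcm5 and Mcm6 the log2 fold changes were -0.06, -0.008 and 0.03. In CPM, Mcm5 and Mcm6 were both highest in Pak4_KO replicate 1 and next highest in WT replicate 2.

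**Figure D3:**
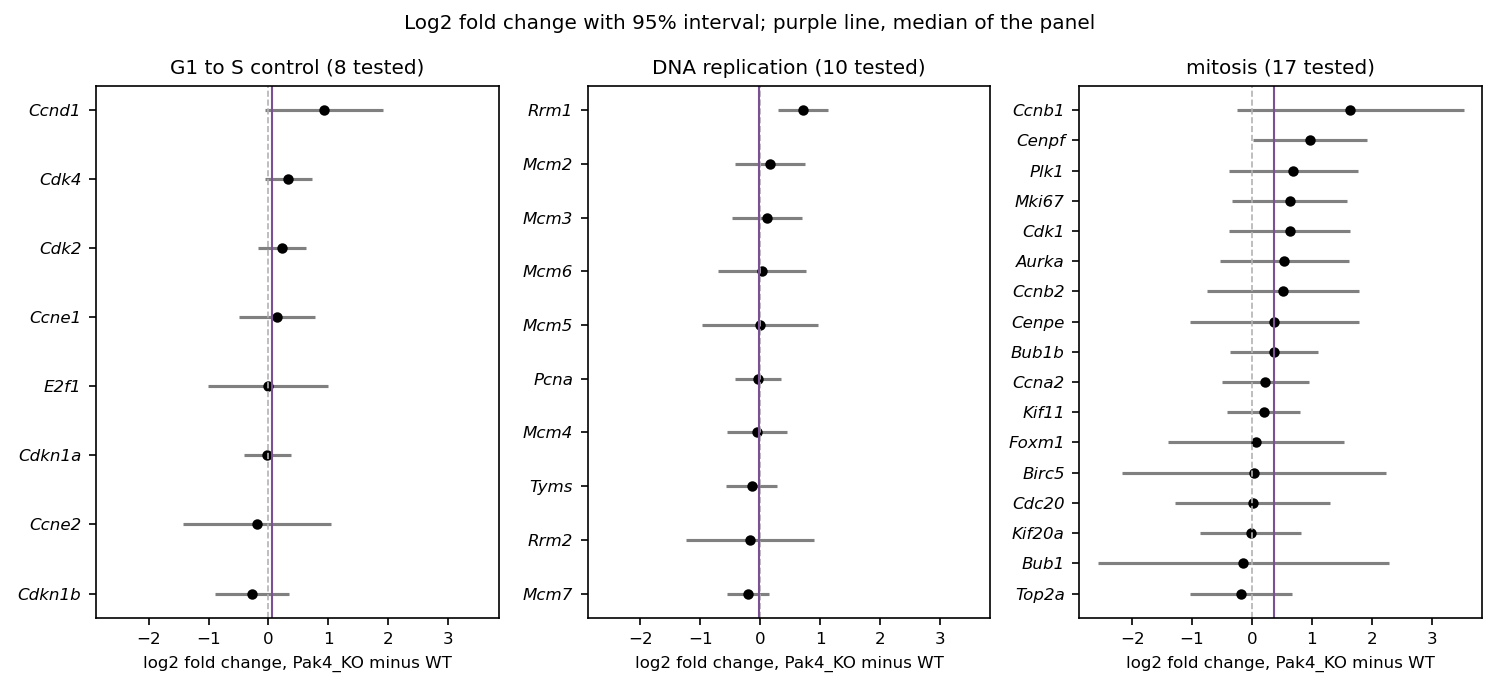
Log2 fold change (Pak4_KO minus WT) of the 35 tested members by role, as points with 95% intervals from the edgeR fit, unadjusted; the purple line is the median of each panel. Replication genes lie close to 0 except Rrm1 (0.71), with the widest intervals for Rrm2 and Mcm5, and mitosis genes spread to the right with intervals that mostly cross 0.

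The 18 mitosis genes were low in all libraries, at a median of 34.7 reads per library over the 17 tested. Log2 fold changes were positive for 14 of 17, with a median of 0.37 and a range from -0.18 to 1.64, and none was called. Only 3 of the 17 intervals lay within a 2-fold change. The summed level was 16.5 ± 6.07 CPM in WT and 21.7 ± 3.13 CPM in Pak4_KO (SD, n = 3 each), from 10.6 to 22.7 in WT and from 18.2 to 24.1 in Pak4_KO. WT replicate 3 was the lowest of the 6 libraries for 10 of the 17 genes and the highest for none. Without WT replicate 3 the median was 0.22, with 11 of 18 positive, since Aurkb then passed the filter. It was 0.19 (11 of 17 positive) without Pak4_KO replicate 3, 0.31 (10 of 17) without Pak4_KO replicate 1 and 0.57 (17 of 18) without WT replicate 1.

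Cenpf encodes a large kinetochore protein of G2 and mitosis (NCBI gene 108000, chromosome 1, 189640606 to 189688107). It had 0.656, 0.253 and 0.616 CPM in WT and 0.920, 0.910 and 1.14 CPM in Pak4_KO, without overlap. These values rest on 12 to 31 reads per WT library and 39 to 57 per Pak4_KO library. The log2 fold change of Cenpf was 0.96 (SE 0.42, 95% interval 0.01 to 1.92, unadjusted p = 0.0481, adjusted p = 0.603), and 0.64 without WT replicate 2.

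Cyclin B1 and CDK1 together drive entry into mitosis. Ccnb1 (NCBI gene 268697, chromosome 13, 100778739 to 100786486) had 15, 0 and 13 reads in WT and 34, 27 and 30 reads in Pak4_KO. It is listed at 0 in WT replicate 2, the WT library in which Cdk1 and Ccnb2 were highest. The log2 fold change of Ccnb1 was 1.64 (SE 0.83, adjusted p = 0.671), and 1.05 without WT replicate 2. In the table, 2 processed pseudogenes, Ccnb1-ps (99.2% identical over 1287 bases) and Gm12856 (98.1% over 1294 bases), held 0 to 4 reads per library, so reads of Ccnb1 can be split with such copies. Cdk1 (chromosome 10, 69335146 to 69352912) had 0.656, 1.16 and 0.358 CPM in WT and 1.37, 0.953 and 1.04 CPM in Pak4_KO, with overlap (log2 fold change 0.63, SE 0.44, adjusted p = 0.805). Ccnb2, cyclin B2, ran from 0.418 to 1.14 CPM in WT and from 0.580 to 2.01 CPM in Pak4_KO, and Ccna2, cyclin A2, from 0.696 to 1.22 and from 1.02 to 1.25 CPM. Ccna2 shares 431 bases with Exosc9, which held 561 to 896 reads per library, so the 35 to 60 reads of Ccna2 are uncertain without the strand setting.

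Mki67 encodes Ki-67, the nuclear protein used to mark cycling cells (NCBI gene 17345, chromosome 7, 135689784 to 135716450). It stood at 7.47, 3.39 and 2.17 CPM in WT and at 8.40, 5.21 and 6.50 CPM in Pak4_KO. WT replicate 1 lay above 2 of the 3 Pak4_KO libraries, as it did for Ccnd1. The log2 fold change of Mki67 was 0.63 (SE 0.42, 95% interval -0.33 to 1.59, adjusted p = 0.785), 1.26 without WT replicate 1 and 0.31 without WT replicate 3. Top2a encodes topoisomerase IIα, which untangles chromosomes (chromosome 11, 98992947 to 99024199), and did not share this pattern. It had 3.63, 2.44 and 1.35 CPM in WT and 1.72, 2.12 and 2.68 CPM in Pak4_KO (log2 fold change -0.18, SE 0.37, 0.19 without WT replicate 1).

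Among the mitotic kinases, Plk1, which acts at centrosomes and kinetochores (chromosome 7, 122159435 to 122169884), had 8, 7 and 8 reads in WT and 14, 11 and 13 reads in Pak4_KO. The groups did not overlap, on these few reads (log2 fold change 0.69, SE 0.47, adjusted p = 0.795). Aurka, aurora kinase A, had 19 to 26 reads in WT and 19, 22 and 58 in Pak4_KO, so that Pak4_KO replicate 3 stood alone. Aurkb, aurora kinase B, had 0, 7 and 0 reads in WT and 13, 4 and 11 in Pak4_KO and was not tested. Its partner Birc5, survivin, had 12, 25 and 0 reads in WT and 16, 7 and 16 in Pak4_KO.

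The spindle checkpoint delays the separation of chromosomes until all are attached. Its kinase Bub1 had 21, 14 and 3 reads in WT and 12, 0 and 25 in Pak4_KO (log2 fold change -0.14, SE 1.06). Bub1b, which encodes BUBR1, ran from 0.884 to 1.92 CPM in WT and from 1.74 to 1.90 CPM in Pak4_KO (0.37, SE 0.32). Cdc20, the activator of the anaphase-promoting complex, had a log2 fold change of 0.01 (SE 0.57), with WT libraries from 8 to 40 reads around Pak4_KO libraries of 22 to 25. The motor protein genes Cenpe (0.37, SE 0.62), Kif11 (0.19, SE 0.27) and Kif20a (-0.02, SE 0.37), and the transcription factor gene Foxm1 (0.07, SE 0.64), overlapped between the groups. Cenpe and Foxm1 were both lowest in WT replicate 3 and highest in WT replicate 1.

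**Figure D4:**
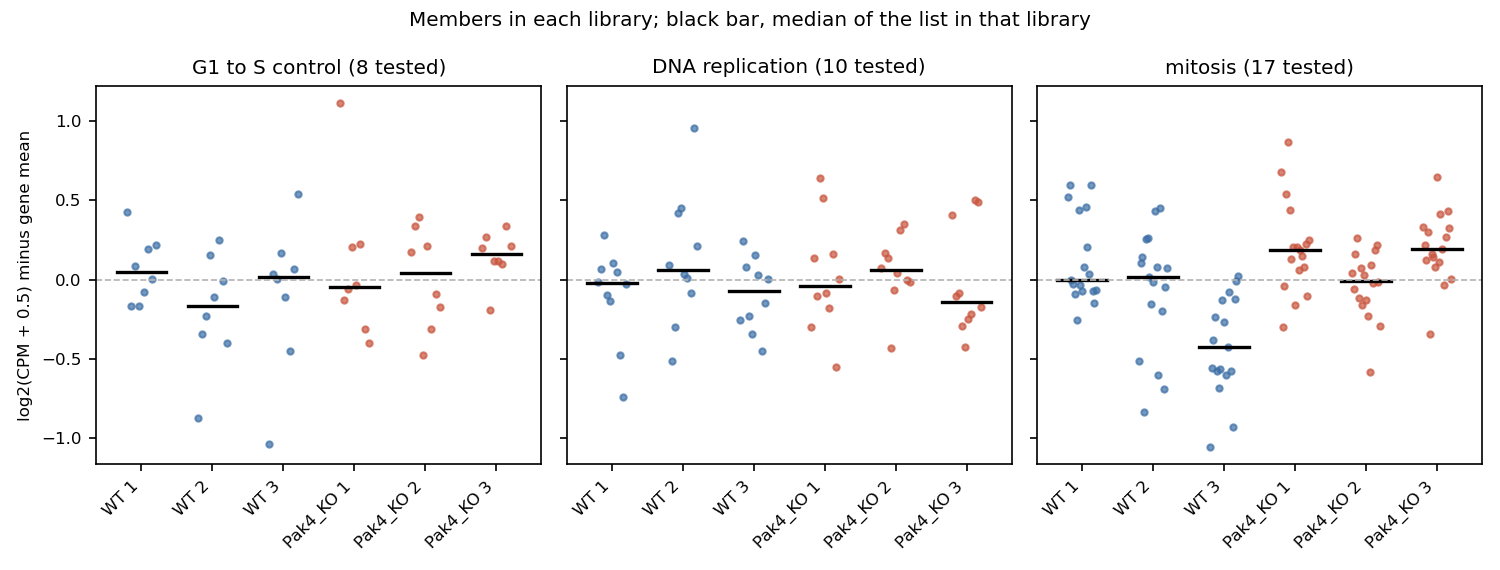
Each tested member in each library as log2(CPM + 0.5) minus the gene's mean over the 6 libraries, by role, with a black bar for the median of the list. Medians of the mitosis genes are -0.001, 0.02 and -0.42 in WT replicates 1 to 3 and 0.19, -0.01 and 0.19 in Pak4_KO, so WT replicate 3 stands apart from the other 5 libraries.

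Library medians of the mitosis list overlapped between the groups. Relative to each gene's mean, the medians over the mitosis list were -0.001, 0.02 and -0.42 (log2) in WT and 0.19, -0.01 and 0.19 in Pak4_KO. Those of the replication list were -0.02, 0.06 and -0.07 in WT and -0.04, 0.06 and -0.14 in Pak4_KO. The erythroid precursor markers (7 of 11 tested, 0 called) also had their lowest library median in WT replicate 3, at -0.63, and their highest in WT replicate 2, at 0.53, with Pak4_KO at 0.17, 0.18 and -0.30. Summed over 10 of these markers in the table, the level was 242 to 438 CPM in WT and 244 to 357 CPM in Pak4_KO. The erythroid and mitosis lists thus differed in Pak4_KO replicate 3, at -0.30 against 0.19. Library medians of the cholangiocyte markers were 0.11, -0.38 and -0.34 in WT and 0.275, 0.03 and 0.33 in Pak4_KO. A relation of either marker list to the mitosis list was not tested.

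Other cell type markers are given for the same libraries. T, NK and B cell markers had 6 of 10 members tested, all with negative log2 fold changes, 0 called, and sums of 3.76 to 5.80 CPM in WT and 2.14 to 2.86 CPM in Pak4_KO, and the B cell marker Cd79a was at 0 in WT. Neutrophil markers (7 of 10 tested, all negative, 0 called) summed to 36.4 to 62.7 CPM in WT and 23.6 to 30.2 CPM in Pak4_KO, without overlap. Of the 7 tested, 5 had an unadjusted edgeR p under 0.05, beside 8.21% of all tested genes. Lower without overlap were 4 of the 7, beside 6.06% of all tested genes. Kupffer cell and macrophage markers (10 tested, all negative, 0 called) summed to 465 to 594 and 363 to 460 CPM. Of these 10, 3 had an unadjusted p under 0.05 and 2 were lower without overlap. Endothelial markers (10 tested, all positive, 0 called) summed to 269 to 340 CPM in WT and 281 to 394 CPM in Pak4_KO. Cholangiocyte markers (8 of 9 tested, 7 positive, 0 called) summed to 42.2 to 61.1 and 56.6 to 85.8 CPM. Stellate cell markers (10 tested, 7 positive, 0 called) summed to 238 to 354 and 212 to 422 CPM. An unadjusted p under 0.05 was found for 2 of the 8 cholangiocyte and 3 of the 10 stellate markers, all higher in Pak4_KO. Plasma cell markers (7 tested, 5 positive, 2 negative) had sums that overlapped, at 232 to 417 CPM in WT and 374 to 431 CPM in Pak4_KO. Their library medians, relative to each gene's mean, did not overlap. These were -0.72, -0.41 and -0.69 (log2) in WT and 0.37, 0.58 and 0.80 in Pak4_KO. The median log2 fold change was 1.46, and 4 of the 7 were higher without overlap, beside 7.35% of all tested genes. Of these 7 markers 2 were called, Tnfrsf17 and Igha, both higher in Pak4_KO, beside 0.469% of all tested genes. The part of any of these cell types in the mitosis values was not tested.

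A wider list of 178 cell cycle genes in 9 roles, none of them members, was read in the same fit. By edgeR 0 of 157 tested genes were called, beside 0.469% of all tested genes. An unadjusted p under 0.05 was found for 9 of the 157 (5 higher, 4 lower), beside 8.21% of all tested genes. Log2 fold changes were positive for 93 and negative for 64, with a median of 0.07. The DESeq2 Wald test called 2, Chek1 higher and Mad1l1 lower. The lists that act in S phase had medians near 0, at 0.02 for origin licensing and firing (12 of 21 positive), 0.04 for the replication fork and histone supply (14 of 25) and -0.03 for nucleotide supply (4 of 8). The lists that act in mitosis had medians of 0.28 for the kinetochore and chromosomes (17 of 20 positive) and 0.26 for the spindle and cytokinesis (17 of 23). The list of checkpoints and entry to mitosis had a median of 0.24 (9 of 14). It is mixed, since it also holds kinases of stalled replication and DNA damage such as Chek1 and Chek2. The kinetochore and spindle lists had their lowest library medians in WT replicate 3, at -0.21 and -0.24, as the mitosis members did. The checkpoint list had its lowest in WT replicate 2, at -0.235, with WT replicate 3 at -0.141. The summed level of the spindle list went the other way from its median, with 90.9 ± 29.1 CPM for WT against 79.4 ± 6.66 CPM for Pak4_KO (SD, n = 3 each). Pocket proteins with E2F and DREAM (-0.06, 7 of 17 positive) and the other cyclins and CDK inhibitors (0.04, 7 of 11) were near 0.

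In the checkpoint list, Chek1, the kinase that halts the cycle when replication stalls, had 1.84, 1.45 and 2.37 CPM in WT and 8.40, 5.55 and 2.78 CPM in Pak4_KO. The groups did not overlap and the Pak4_KO libraries were far apart (log2 fold change 1.56, SE 0.40, edgeR adjusted p = 0.243, DESeq2 adjusted p = 0.0104). Mad1l1, a spindle checkpoint gene, had 24.2, 24.2 and 27.0 CPM in WT and 17.1, 16.6 and 16.6 CPM in Pak4_KO, with libraries close together in each group. Its log2 fold change was -0.59 (SE 0.12, edgeR adjusted p = 0.134, DESeq2 adjusted p = 0.00437). Tk1, thymidine kinase of the salvage pathway, had 4.69, 7.98 and 3.96 CPM in WT and 3.14, 2.58 and 2.40 CPM in Pak4_KO, without overlap (log2 fold change -1.03, SE 0.29, adjusted p = 0.298). Cad, which starts pyrimidine synthesis, had a log2 fold change of 0.15 (SE 0.18).

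By the same rule, the 2 genes with the smallest p are given for each other list, and none was called. For the spindle these are Kif4 (log2 fold change 1.17, SE 0.37, adjusted p = 0.382) and Kif2c (1.15, SE 0.55, adjusted p = 0.655), both motor protein genes at under 1 CPM whose groups did not overlap. For the kinetochore they are Zwilch (0.79, SE 0.41) and Cenpw (0.72, SE 0.38). For origins they are Clspn, which encodes the checkpoint adaptor claspin (1.06, SE 0.49), and Gins1, of the replicative helicase (-0.41, SE 0.25). For the fork they are Rpa2, of the single-strand binding protein (-0.48, SE 0.26), and Chaf1b, a histone chaperone (0.54, SE 0.38). The pocket protein gene Rbl2 (0.24, SE 0.12), the repressor gene E2f8 (-0.99, SE 0.54), Cks2 (-0.48, SE 0.27) and Cdkn1c, which encodes p57 (0.71, SE 0.53), complete these lists.

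The p53 targets listed beside Cdkn1a had a median log2 fold change of -0.08, with 6 of 18 positive and 0 called. Mdm2, the ubiquitin ligase that restrains p53, had 62.3, 55.7 and 55.0 CPM in WT and 39.9, 43.4 and 43.8 CPM in Pak4_KO. The groups did not overlap (log2 fold change -0.45, SE 0.12, adjusted p = 0.257). Ei24 had means of 89.1 ± 10.8 CPM for WT and 116 ± 9.45 CPM for Pak4_KO, without overlap (SD, n = 3 each; log2 fold change 0.39, SE 0.14, edgeR adjusted p = 0.469).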

How the data were processed

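RNA from whole liver was read from TruSeq Stranded mRNA libraries, as the labels' protocols state. Per the submitters' processing notes, the tools include StringTie 2.1.3b, HISAT2 2.1.0 and Bowtie2 2.3.4.1, and the build is mm10. Strand setting and annotation release: not given in the sources used here. Whole-number read counts per gene, not normalized, were what the authors deposited, with FPKM (not used here) and TPM, a share scaled per length, per the file headers.

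All 6 libraries entered 1 fit of the counts in edgeR 4.0.16 under R 4.3.3 (filterByExpr, TMM, glmQLFTest, two-sided, Benjamini-Hochberg over 16197 genes, called under 0.05). The SE is the absolute log2 fold change over the square root of F, and the 95% interval uses the fit's total degrees of freedom. The fit was run on counts simulated from its own model, with the spread fitted to these data. That run does not measure its power for these members. Copies were found with blastn 2.17.0 in GENCODE M21 (95% identity over at least 0.5 of the shorter transcript). Alternatives were other scalings and filters, DESeq2 1.42.0, limma 3.58.1, TPM, a block for the replicate number, and fits that each omit 1 library.

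The members and lists were chosen with earlier results of these data known. Values in every library are given for the 5 members of each role with the smallest p and for Mki67, Top2a, Ccnd1, Cdkn1a, Cdkn1b, Cdk1, Ccnb1, Mcm2, Pcna and E2f1; Rrm2 and others given so were chosen after their values were seen. From each wider list the 2 genes with the smallest p are named. The 6 printed promoters were chosen after their matches were seen, and the blastn minimums after the data were seen.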

Additional observations from a re-analysis of the deposited data

How the results depend on the processing

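The DESeq2 Wald test called 1 member (Rrm1) and 2 wider cell cycle genes, where the other alternatives called 0 of both. The count of all called genes, 76, was 334 with the DESeq2 Wald test, 44 with at least 10 reads in every library, which tests fewer genes, and between 37 and 81 with 1 library left out (44 without WT replicate 1, 46 without WT replicate 2, 38 without Pak4_KO replicate 2 and 37 without Pak4_KO replicate 3). With the replicate number as a block it was 73, and no member was called. The replicate numbers are not known to pair the animals: same-numbered libraries deviated from their group means with correlations of 0.067, -0.20 and 0.15 across genes. The median of the mitosis genes was 0.11 on log2(TPM + 1), where the added 1 shrinks low genes, and between 0.19 and 0.57 with 1 library left out. The same ranges were 0.065 to 0.18 for G1 to S control (0.18 without Pak4_KO replicate 2) and -0.088 to 0.10 for replication (0.10 without WT replicate 2). Of 283 values of the 19 members under alternatives, 20 changed sign, in 7 members. With library size alone, E2f1 was 0.038, Cdkn1a 0.046 and Pcna 0.007. On log2(TPM + 1), E2f1 was 0.033, Cdkn1a 0.039 and Pcna 0.021. E2f1 was 0.047 with limma-voom and 0.026 with the replicate block. With 1 library left out, log2 fold changes ran from -0.32 to 0.22 (E2f1), -0.23 to 0.12 (Cdkn1a), -0.23 to 0.058 (Pcna), -0.10 to 0.28 (Ccne1), -0.054 to 0.35 (Mcm2), -0.10 to 0.30 (Mcm3) and -0.48 to 0.19 (Top2a). Members that a stricter filter removed, such as Ccnb1, got no value there. Within a 2-fold change lay 3 of 17 intervals for mitosis, at a median of 34.7 reads, and 8 of 10 for replication, at 239.7 reads. Depth and spread between libraries were not separated, and causes were not tested.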

Other observations

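In the checkpoint list, 3 genes were higher and 2 lower at an unadjusted p under 0.05, of 14 tested, beside 8.21% of all tested genes. Besides Chek1 and Mad1l1, 3 further genes make up this count and are named after their values were seen. Pkmyt1, an inhibitory kinase of CDK1, had 0, 0 and 0.159 CPM in WT and 0.472, 0.487 and 0.760 CPM in Pak4_KO (unadjusted p = 0.00872, edgeR adjusted p = 0.325). Chek2, a kinase of the DNA damage checkpoint, stood at 0.252, 0.253 and 0.239 CPM in WT and at 0.873, 0.466 and 0.580 CPM in Pak4_KO (log2 fold change 1.36, SE 0.42, adjusted p = 0.364). Wee1, which also restrains CDK1, stood at 2.75, 6.17 and 2.07 CPM in WT and at 2.01, 1.63 and 2.14 CPM in Pak4_KO, where the groups overlapped and WT replicate 2 was the highest (log2 fold change -0.93, SE 0.40, adjusted p = 0.603).

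Of the 36 members, 5 lie on chromosome 7 with Pak4. Ccne1 is 9.5 Mb from Pak4 and had a log2 fold change of 0.14 (SE 0.28). Rrm1 is 73.8 Mb away, Plk1 93.6 Mb, Mki67 107 Mb and Ccnd1 116 Mb. Their log2 fold changes were 0.71 (SE 0.18), 0.69 (SE 0.47), 0.63 (SE 0.42) and 0.93 (SE 0.43), in the same order. No share over the other genes of chromosome 7 is given, and a relation to position was not tested.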
